A study of Mus musculus with 6 samples.

Results

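The matrix glycoproteins, laminins and elastic fiber proteins of cultured osteoblasts were followed through 41 genes, chosen by name with earlier results of these data known. Of these, 39 had a probe set carrying that single gene symbol, out of 18193 genes in all, and the other 2 were not analysed here. Each gene was read from its brightest probe set over the 6 arrays, a probe set being a group of short probes for one transcript. In pRb-deficient cultures 9 of these genes were higher and 16 lower than in pRb-expressing cultures, 11 did not pass the test, and 3 stayed at background on every array. The strongest rises were those of Fbln1 (fibulin 1) and Tgfbi (transforming growth factor beta induced protein), at 27.5-fold and 23.9-fold, and strong falls included those of Vcan (versican) and Npnt (nephronectin), at 14.0-fold and 11.8-fold in their brightest probe sets. Falls of genes at background in pRb-deficient cultures, such as Tnn, are bounds and cannot be ranked with these.

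The cells were MC3T3 osteoblasts, calvarial bone cells of mice at embryonic day 18.5 that had been immortalized by serial passage on the 3T3 schedule. The 3 pRb-deficient cultures carry an Rb Knockout made from a floxed RB1 allele with Col1a1-Cre, a recombinase driven by a type I collagen promoter, and the 3 pRb-expressing cultures are labelled Wild type and, by the study's account, came from control littermates. The floxed mice were kept on a C57BL/6 background. The study names more than one Col1a1-Cre line but not which was used for these cultures, nor whether the control cultures carry Cre. The labels call the cultures biological replicates without saying how many animals or separate lines lie behind them. P-values therefore measure the spread between these cultures, which may not be that between animals, and line of origin and pRb status cannot be told apart. Rb1, the gene of pRb, had signals of 143, 127 and 124 in pRb-deficient cultures, against 1124, 1119 and 1106 in pRb-expressing cultures.

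Matrix glycoproteins link cells to collagen and to each other through integrins and other receptors. Laminins are trimers of an alpha, a beta and a gamma chain that form the sheet of basement membranes together with nidogens, whereas elastic fibers consist of an elastin core on fibrillin microfibrils, with fibulins and emilins at the interface. Matricellular proteins such as thrombospondins, tenascins and periostin are secreted into the matrix and modulate adhesion and signaling more than they bear load. Bone matrix is mostly type I collagen, and Sparc (osteonectin) and fibronectin are among its abundant other proteins.

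Signals are MAS5 intensities on a linear scale, which the authors scaled to a trimmed mean of 500 on each array, and signals below a floor of 32, near background, were raised to 32 before log2 transformation. The groups were compared with limma. Adjusted p-values come from that fit, with Benjamini-Hochberg adjustment over the 38427 probe sets tested and a threshold of 0.05. Where an altered input or model is named, such as a left-out array, the value comes from a separate fit with its own adjustment. Log2 fold changes are pRb-deficient over pRb-expressing, folds are on geometric means, SE is the standard error of the log2 fold change, and a fold is written as "at least" where an array of the lower group lay at or below the floor. Signals of different genes come from different probes and are not compared with each other. The median log2 fold change of all genes tested was −0.09.

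Of 36 matrix genes above the floor on at least 1 array, 25 (69.4%) passed, against 41.9% of all 16308 genes tested. These genes and the lists further below were chosen with earlier results of these data known. Their shares are therefore not those of a blind choice. The 9 higher genes stood against a background of 18.5% of all genes and the 16 lower genes against one of 23.4%. Among genes averaging 200 or more over the arrays, 20 of 24 matrix genes passed, against 59% of all such genes. A change of at least 2-fold with a passed test was found for 18 matrix genes, 7 higher and 11 lower, against 15.6% of all genes. The signals of the groups did not overlap for 24 of the 36 genes, against 53.8% of all genes. The median log2 fold change of the 36 genes was −0.09, the same as that of all genes, but it depended on which genes and probe sets entered. It was −0.23 for the 24 brighter genes, −0.48 for genes averaging at least 100 (all such genes −0.09) and −0.36 in second brightest probe sets (all genes −0.08). Of the 36, Tnn and Nid1 were above the floor in pRb-expressing cultures alone and Lama1 in 1 pRb-deficient culture alone, so that their passing the filter rested on the group in which they were higher.

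**Figure D1:**
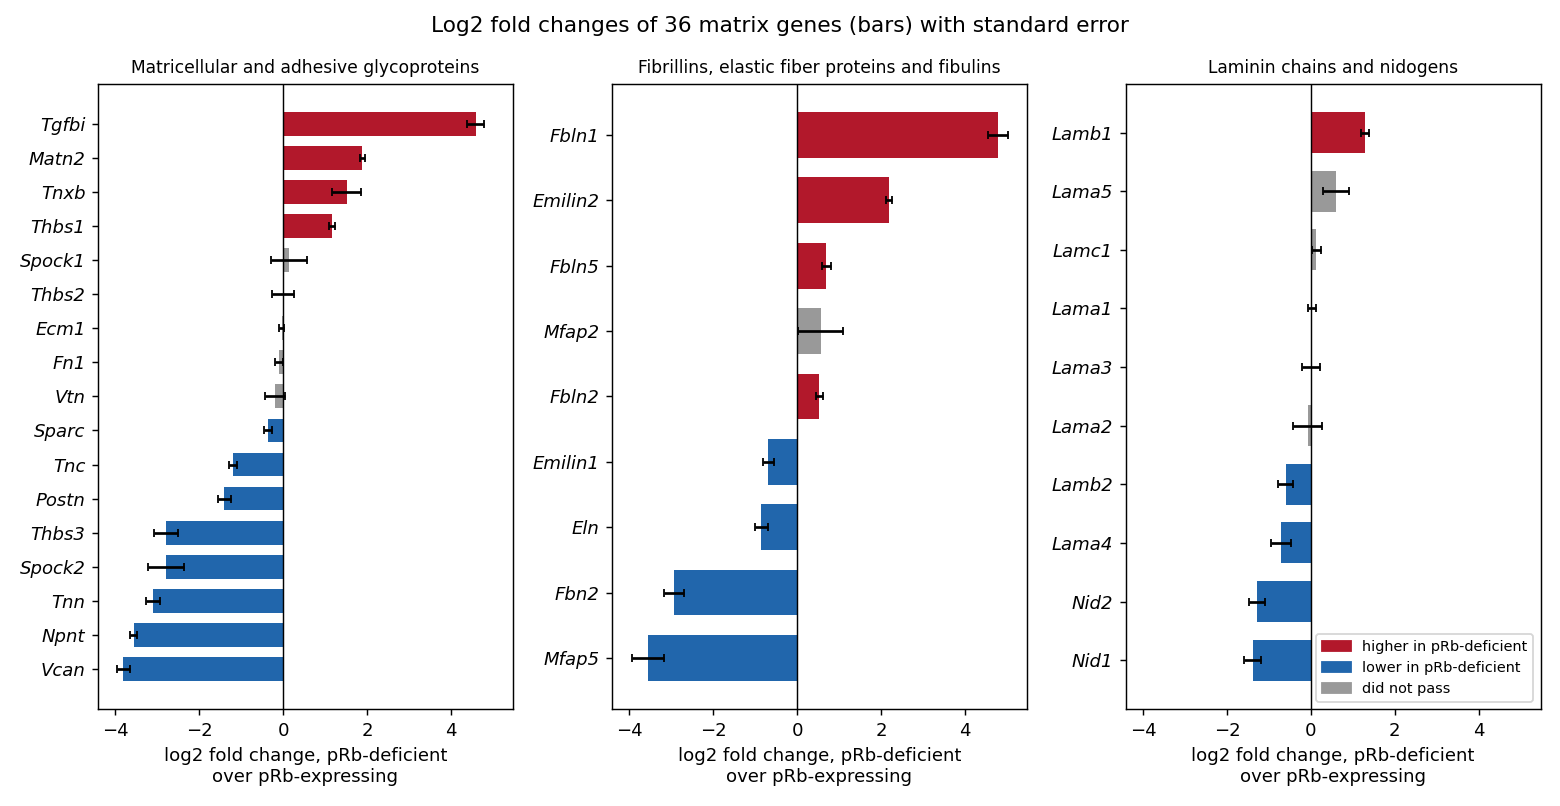
Log2 fold change (x axis, pRb-deficient over pRb-expressing) of the 36 tested matrix genes, by role, with bars for the fitted value and whiskers for its standard error (n = 3 cultures a group). Red bars passed as higher, blue bars as lower, and gray bars did not pass; the values run from −3.81 for Vcan to 4.78 for Fbln1, and each panel holds bars in both directions.

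Promoters were searched because pRb is best known for binding E2F transcription factors. RefSeq promoters of GRCm38.p6 were at hand for 27 of the 39 genes (34 start sites), and the 250 bases before each start were read. None of the 34 held TTTCCCGC, TTTGGCGC, TTTCGCGC or TTTGCCGC, forms of the E2F motif, on either strand, and 1.86% of all 32851 promoters did. At a share as low as 1.86%, 34 windows are too few to show a difference from all promoters. The absence of these letters from a window also says nothing of E2F binding elsewhere. Below are 4 of them, with CG dinucleotides in capitals: Npnt and Tgfbi as examples of a strong fall and a strong rise, and Emilin2 and Emilin1 as related genes that changed in opposite directions. All are written 5′ to 3′ toward the start site. The Npnt sequence (chr3:132950292-132950541, minus strand, 1 of 2 listed starts) holds 21 CG and the Tgfbi sequence (chr13:56609336-56609585, plus strand) 15, whereas that of Emilin2 (chr17:71311557-71311806, minus strand, 1 of 2 listed starts) holds 6 and that of Emilin1 (chr5:30913536-30913785, plus strand) 4, where the median over all promoters was 6.
Npnt: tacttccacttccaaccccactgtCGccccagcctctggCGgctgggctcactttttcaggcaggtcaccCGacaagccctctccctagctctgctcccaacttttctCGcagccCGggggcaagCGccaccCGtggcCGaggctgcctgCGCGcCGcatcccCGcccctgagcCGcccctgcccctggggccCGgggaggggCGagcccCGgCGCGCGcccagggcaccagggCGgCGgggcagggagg
Tgfbi: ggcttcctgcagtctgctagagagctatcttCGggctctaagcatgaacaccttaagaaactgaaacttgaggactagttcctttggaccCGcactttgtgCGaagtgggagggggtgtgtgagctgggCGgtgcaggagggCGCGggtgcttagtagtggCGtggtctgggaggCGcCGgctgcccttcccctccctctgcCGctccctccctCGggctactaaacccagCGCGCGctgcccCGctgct
Emilin2: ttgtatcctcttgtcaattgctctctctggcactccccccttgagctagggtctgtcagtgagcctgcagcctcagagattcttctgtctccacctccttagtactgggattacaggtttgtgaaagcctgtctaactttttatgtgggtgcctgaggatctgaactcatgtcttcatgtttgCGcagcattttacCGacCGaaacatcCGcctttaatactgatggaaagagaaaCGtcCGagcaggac
Emilin1: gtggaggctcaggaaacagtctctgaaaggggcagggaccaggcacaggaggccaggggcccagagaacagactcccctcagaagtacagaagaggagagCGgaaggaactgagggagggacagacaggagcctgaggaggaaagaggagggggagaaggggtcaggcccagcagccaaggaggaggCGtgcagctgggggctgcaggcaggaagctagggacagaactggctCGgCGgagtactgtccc
The gene that fell and the gene that rose in the first pair thus both had windows with more CG than the median promoter. The printed emilin windows lie at or below it, but the window of the other Emilin2 start holds 15 CG.

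Among integrin ligands that hold cells on the matrix, nephronectin and periostin were lower, Tgfbi was higher, and fibronectin did not pass. Npnt encodes nephronectin, a ligand of integrin alpha 8 beta 1, and its signal was 1269, 1515 and 1405 in pRb-deficient cultures, against 16306, 16992 and 16083 in pRb-expressing cultures. All pRb-deficient cultures lay far below all pRb-expressing ones, a log2 fold change of −3.56 (SE 0.08, limma adjusted p = 1.52e-06). Postn encodes periostin, a matricellular protein of periosteum and other collagen-rich tissues, with signals of 6351, 4743 and 4135 in pRb-deficient cultures, against 13251, 12603 and 13625 in pRb-expressing cultures. The groups did not overlap, and Postn was 2.63-fold lower (adjusted p = 0.000511). Tgfbi shares the fasciclin domains of periostin, and its signals were 2628, 2268 and 1500.4 in pRb-deficient cultures, against 96.1, 86.0 and 79.2 in pRb-expressing cultures. It thus moved the other way from its relative, with a log2 fold change of 4.58 (SE 0.21, limma adjusted p = 1.57e-05).

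Fn1 encodes fibronectin, which assembles into the first fibrils on which other matrix proteins are laid down. Its signals were 18699, 18914 and 17927 in pRb-deficient cultures, against 20617, 21106 and 18009 in pRb-expressing cultures. The groups overlapped, and the log2 fold change of −0.10 (SE 0.09) had an adjusted p of 0.419. The median log2 fold change of chromosome 1, on which Fn1 lies, was −0.50, and with chromosome medians removed Fn1 had a log2 fold change of 0.40 (adjusted p = 0.0124). Vtn, the gene of the plasma and matrix adhesion protein vitronectin, was near the floor in both groups, at 35.7 to 40.2 in pRb-deficient and 30.3 to 60.7 in pRb-expressing cultures.

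The thrombospondins went in different directions. Thbs1 encodes a trimeric thrombospondin that activates latent TGF-beta, and its signals were 14404, 14355 and 12225 in pRb-deficient cultures, against 6082, 6139.7 and 6119 in pRb-expressing cultures. It was 2.23-fold higher, with no overlap (adjusted p = 8.35e-05). Thbs2, its close relative, had signals of 6481, 4484 and 2953 in pRb-deficient cultures, against 4458, 4399 and 4496 in pRb-expressing cultures. The pRb-expressing values lay within the range of the pRb-deficient ones, and the log2 fold change of −0.01 had an SE of 0.26 (adjusted p = 0.976). Thbs3, of the pentameric subgroup found in cartilage and bone, had signals of 76.5, 38.4 and 45.2 in pRb-deficient cultures, against 341, 321 and 406 in pRb-expressing cultures. It was 6.94-fold lower, with no overlap (adjusted p = 0.000399), while Thbs4 was below the floor on all 6 arrays.

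Tenascins are large hexameric or oligomeric proteins that weaken adhesion to fibronectin, and those of bone fell. Tnc, found around forming bone and in tendon, had signals of 2570, 2945 and 3301 in pRb-deficient cultures, against 6963, 6421 and 6582 in pRb-expressing cultures. It was 2.28-fold lower, with no overlap (adjusted p = 0.000163). Tnn, which encodes tenascin W, a protein of developing bone, had signals of 19.0, 6.60 and 20.3 in pRb-deficient cultures, against 253, 288 and 290.0 in pRb-expressing cultures. All pRb-deficient values were below the floor, so it was at least 8.64-fold lower (adjusted p = 2.98e-05). Tnxb, the tenascin of loose connective tissue, had signals of 113, 128 and 124 in pRb-deficient cultures, against 31.6, 75.1 and 20.4 in pRb-expressing cultures. It was at least 2.86-fold higher (adjusted p = 0.0143), but this call was lost without pRb-deficient replicate 1, 2 or 3 (adjusted p = 0.0555, 0.069 and 0.0568) and without pRb-expressing replicate 1 or 3 (0.0755 and 0.0709).

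Among proteoglycans and calcium-binding proteins of the matrix, versican and testican 2 were lower and matrilin 2 was higher. Vcan encodes versican, a large chondroitin sulfate proteoglycan that binds hyaluronan, with signals of 45.9, 53.5 and 46.2 in pRb-deficient cultures, against 726, 662 and 647 in pRb-expressing cultures. It was 14.0-fold lower, with no overlap (log2 fold change −3.81, SE 0.15, limma adjusted p = 1.01e-05). Spock2, the gene of testican 2, a proteoglycan related to osteonectin, had signals of 95.0, 35.9 and 20.2 in pRb-deficient cultures, against 294, 358 and 346 in pRb-expressing cultures. It was at least 6.93-fold lower (adjusted p = 0.00206), while its second probe set did not pass (log2 fold change −0.80, adjusted p = 0.158). Matn2 encodes matrilin 2, an adaptor of filamentous networks, with signals of 5248, 5595 and 5169 in pRb-deficient cultures, against 1509.6, 1441 and 1409.9 in pRb-expressing cultures. The groups were well apart, and Matn2 was 3.67-fold higher (SE of log2 0.06, limma adjusted p = 5.06e-06).

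Sparc encodes osteonectin, which binds collagen and calcium, and its signals were 20238, 20025 and 17885 in pRb-deficient cultures, against 25699.7, 26046 and 23041 in pRb-expressing cultures. The groups did not overlap and the log2 fold change was −0.36 (SE 0.09, limma adjusted p = 0.0177). The median log2 fold change of its chromosome 11 was −0.52, and with chromosome medians removed Sparc had a log2 fold change of 0.16 (adjusted p = 0.232). Its call was also lost with quantile normalization (adjusted p = 0.138), median centring (0.0609) and no filter on low values (0.0552). The same held without pRb-deficient replicate 2 (0.0583), pRb-expressing replicate 1 (0.0829) or pRb-expressing replicate 2 (0.078). Ecm1, the gene of extracellular matrix protein 1, had signals of 4685, 4422 and 4816 in pRb-deficient cultures, against 5071, 4681 and 4529 in pRb-expressing cultures. The groups overlapped, with a log2 fold change of −0.04 (SE 0.07, limma adjusted p = 0.742). Spock1, the gene of testican 1, lay around the floor in both groups and did not pass.

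**Figure D2:**
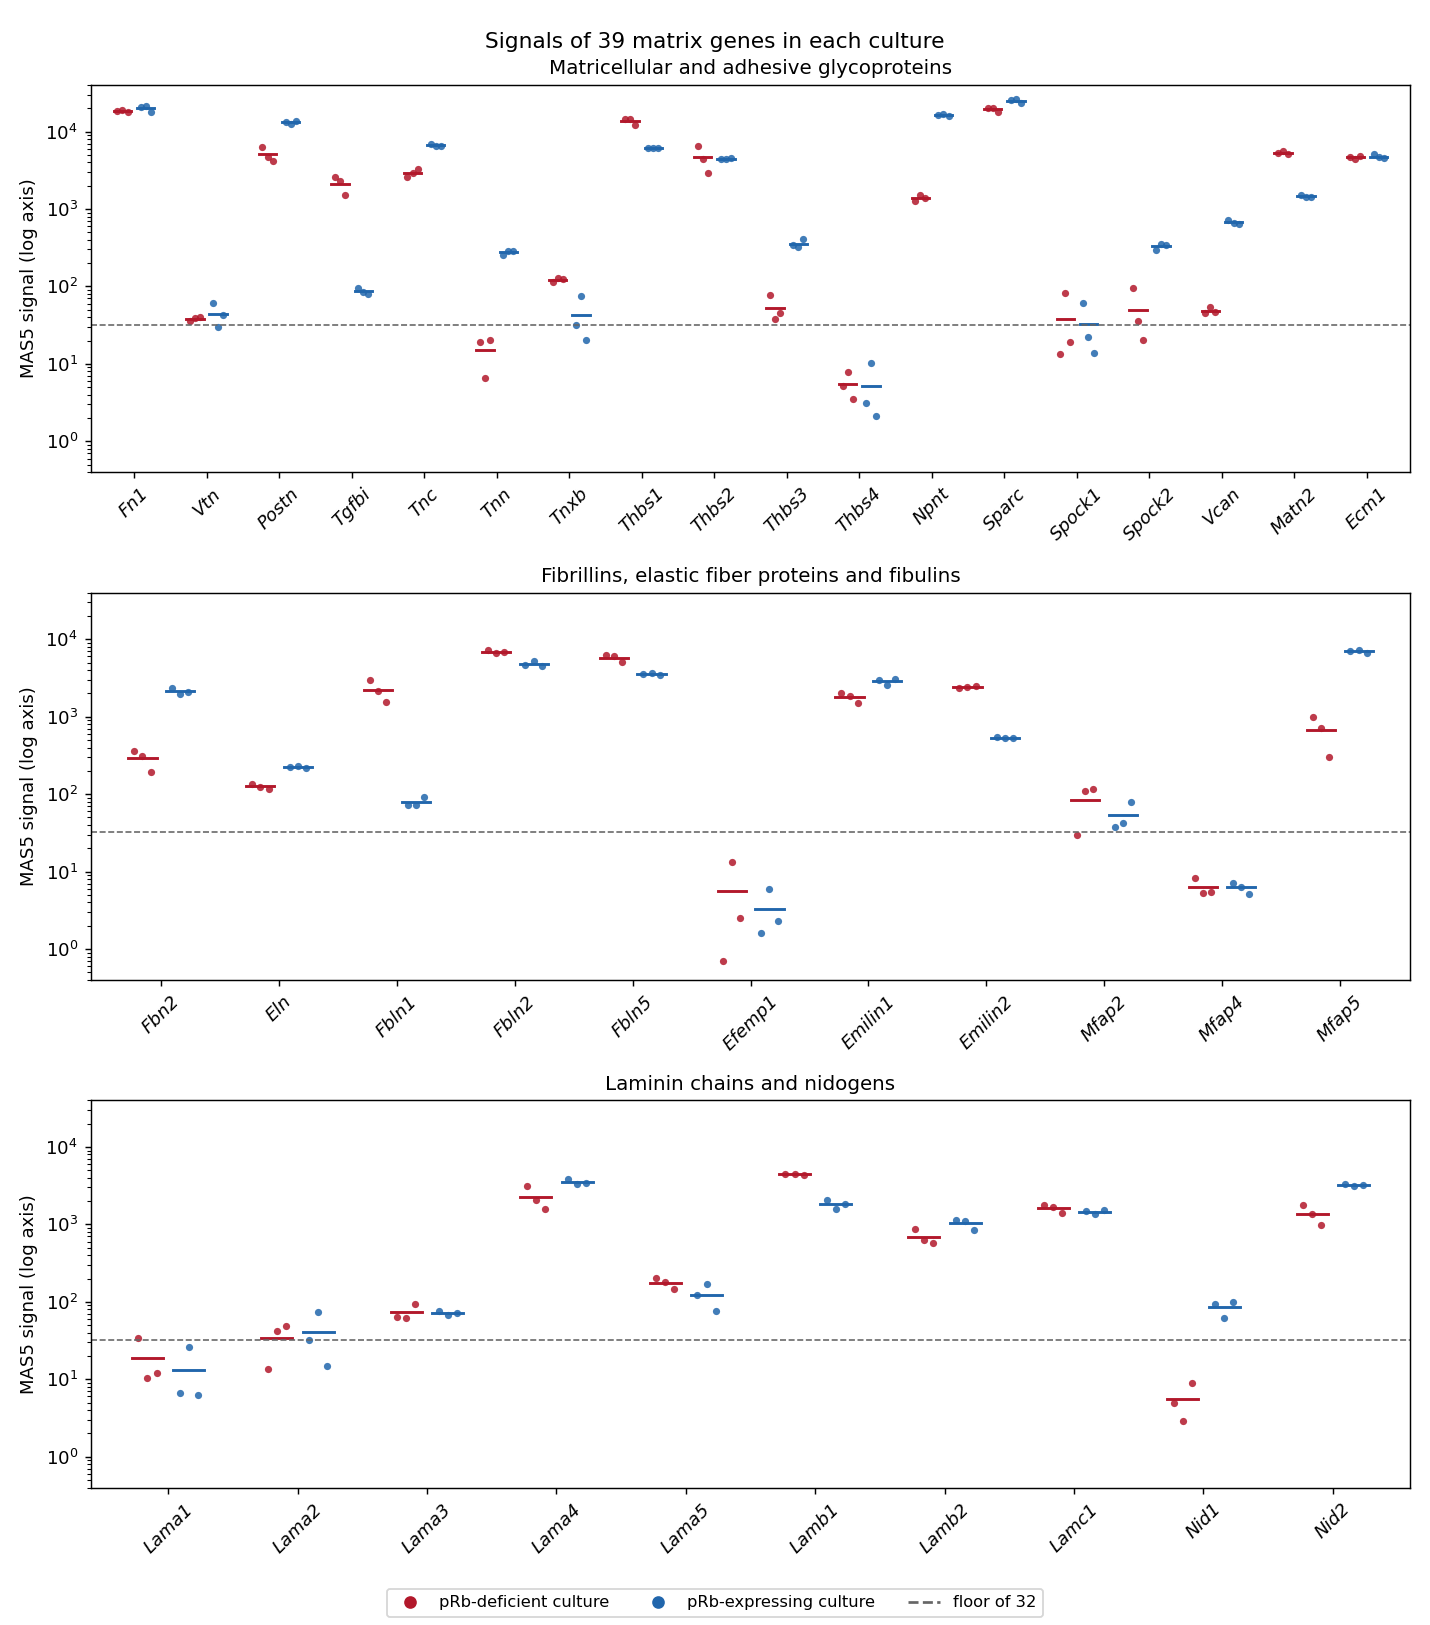
MAS5 signal (log axis) of the 39 matrix genes in each culture, by role, with points for the pRb-deficient (red) and pRb-expressing (blue) cultures, a bar at the mean of 3 cultures and a dashed line at the floor of 32. Groups are to be compared within a gene: Npnt, Vcan, Mfap5 and Fbn2 lie lower and Tgfbi, Fbln1 and Emilin2 higher in pRb-deficient cultures with no overlap, while Fn1, Thbs2 and Ecm1 overlap.

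Of the elastic fiber genes tested, 4 were higher, 4 lower and 1 did not pass, and the 3 fibulins tested among them were higher. Fibulins are glycoproteins that bridge elastin, basement membrane proteins and fibronectin. Fbln1 had signals of 2958, 2153 and 1546 in pRb-deficient cultures, against 72.7, 71.4 and 91.7 in pRb-expressing cultures. It had the largest fold of the 36 genes, with a log2 fold change of 4.78 (SE 0.24, limma adjusted p = 2.16e-05). Fbln2 had signals of 7285, 6557 and 6805 in pRb-deficient cultures, against 4625, 5215 and 4517 in pRb-expressing cultures. This rise was smaller, 1.44-fold, with no overlap (adjusted p = 0.00232). Fbln5, needed for the assembly of elastic fibers in mice, had signals of 6335, 6071 and 5036 in pRb-deficient cultures, against 3568, 3670.2 and 3479.9 in pRb-expressing cultures. It was 1.62-fold higher, with no overlap (adjusted p = 0.00144), a call that was lost with the mean of its probe sets (adjusted p = 0.0681) and in its dim second probe set (0.399). Efemp1, another fibulin gene, was below the floor on all 6 arrays.

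The microfibril genes that passed were lower. Fbn2 encodes fibrillin 2, the fibrillin of developing tissues, with signals of 365, 312 and 192 in pRb-deficient cultures, against 2369, 1979 and 2083 in pRb-expressing cultures. It was 7.65-fold lower (SE of log2 0.23, limma adjusted p = 0.000123). Mfap5, a microfibril-associated glycoprotein that binds fibrillins, had signals of 990.0, 708 and 302 in pRb-deficient cultures, against 7097, 7272 and 6631 in pRb-expressing cultures. The groups were far apart although the pRb-deficient cultures differed among themselves, and Mfap5 was 11.7-fold lower (SE of log2 0.39, limma adjusted p = 0.000549). Mfap2, its paralog, did not pass (log2 fold change 0.56, adjusted p = 0.489). Its second probe set went the other way and did not pass either (−0.83, adjusted p = 0.0562). Mfap4, another microfibril-associated gene, was below the floor on all arrays.

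Eln encodes elastin itself and was 1.80-fold lower, with signals of 117 to 135 in pRb-deficient and 219 to 233 in pRb-expressing cultures (adjusted p = 0.00463). The emilins, glycoproteins at the surface of elastic fibers, moved apart. Emilin2 had signals of 2326, 2449 and 2513 in pRb-deficient cultures, against 553, 524 and 529 in pRb-expressing cultures. Its values varied little within a group, and it was 4.54-fold higher (SE of log2 0.07, limma adjusted p = 3.72e-06). Emilin1, whose promoter window is printed beside that of Emilin2, was 1.62-fold lower, with signals of 1493 to 2038 in pRb-deficient and 2601 to 3078 in pRb-expressing cultures (adjusted p = 0.00535).

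Of 10 basement membrane genes, 1 laminin chain was higher, 2 laminin chains and both nidogens were lower, and 5 chains did not pass, a share near the 41.9% of all genes that passed. Lamb1 encodes the beta 1 chain of most laminins outside muscle and nerve junctions, with signals of 4523, 4431 and 4346 in pRb-deficient cultures, against 2049, 1598 and 1825 in pRb-expressing cultures. It was 2.44-fold higher, with no overlap (adjusted p = 9.89e-05). Its paralog Lamb2, the beta 2 chain, had signals of 575 to 868 in pRb-deficient and 854 to 1135 in pRb-expressing cultures. These ranges overlapped, and the log2 fold change was −0.60 (adjusted p = 0.042). The call, though not the direction, was lost without pRb-deficient replicate 2 or 3 (log2 fold change −0.54 and −0.48, adjusted p = 0.163 and 0.14) and without pRb-expressing replicate 1 or 2 (−0.53 and −0.54, adjusted p = 0.17 and 0.181). It was also lost with no filter on low values (adjusted p = 0.111) and with variances that do not follow the mean signal (0.0666). Lamc1, the gamma 1 chain shared by these trimers, had signals of 1767, 1664 and 1406 in pRb-deficient cultures, against 1501, 1345 and 1557 in pRb-expressing cultures, with a log2 fold change of 0.13 (adjusted p = 0.40). With the median of its chromosome 1 removed, Lamc1 had a log2 fold change of 0.63 and passed (adjusted p = 0.00412).

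Of the alpha chains, which carry the receptor-binding domains, Lama4, found in vessel and muscle basement membranes, was 1.64-fold lower, with signals of 1574 to 3105 in pRb-deficient and 3370 to 3808 in pRb-expressing cultures (adjusted p = 0.0492). This call, just under the threshold, was lost without pRb-deficient replicate 2 or 3 (adjusted p = 0.176 and 0.122), without pRb-expressing replicate 1, 2 or 3 (0.188, 0.163 and 0.145) and in its second probe set (0.335). It was also lost with no filter on low values (0.136), quantile normalization (0.0575), variances that do not follow the mean signal (0.077) and the mean of its probe sets. Lama5, the alpha chain of many mature epithelial basement membranes, had signals of 145 to 203 in pRb-deficient and 76.7 to 168 in pRb-expressing cultures and did not pass (adjusted p = 0.201). Lama1, Lama2 and Lama3 stayed at or under 93.6 on every array, with adjusted p of 0.821, 0.89 and 0.989.

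Nidogens bridge laminin and type IV collagen. Nid2 had signals of 1768, 1350.1 and 985 in pRb-deficient cultures, against 3349, 3180.3 and 3257 in pRb-expressing cultures. It was 2.45-fold lower, with no overlap (adjusted p = 0.00212). Nid1 was weak on all arrays, at 2.9 to 9.0 in pRb-deficient and 62.8 to 100.1 in pRb-expressing cultures, at least 2.61-fold lower (adjusted p = 0.00206). Without any floor its log2 fold change was −4.04 (adjusted p = 0.00081). A floor of 100, above all but 1 of its values, sets the groups equal by construction.

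Of the 39 genes, 26 had more than 1 probe set on the array, 83 probe sets in all. Among the 18 genes that passed and had another probe set, 12 also passed in another one in the same direction, and 0 did so in the opposite direction. Npnt was lower in all 5 of its probe sets (log2 fold changes of −4.92 to −3.55), Tgfbi higher in all 4 (2.41 to 4.58) and Lamb1 higher in 3 of 4 (1.29 to 1.42, and 0.29 in a dim one that did not pass). Vcan was lower in 3 of 8 probe sets, the other 5 being below the floor on every array. The third Fbln1 probe set, with mean signals of 232 in pRb-deficient and 209 in pRb-expressing cultures, did not share the rise of the other 2 (log2 fold change 0.18, adjusted p = 0.586). Both probe sets of Fn1 and all 3 of Thbs2 did not pass.

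**Figure D3:**
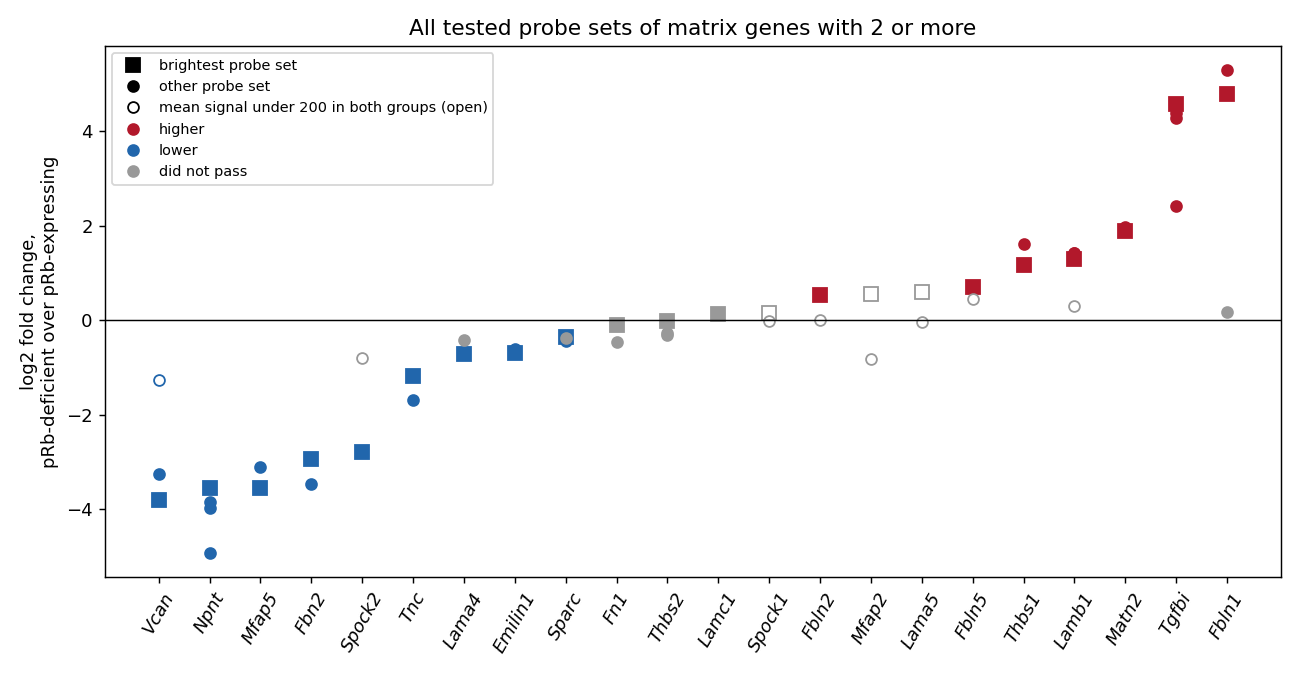
Log2 fold change (y axis, pRb-deficient over pRb-expressing) of each tested probe set of the matrix genes with at least 2 of them, squares for the brightest probe set and circles for the others, open where the mean signal was under 200 in both groups. Red and blue symbols passed as higher and lower and gray ones did not pass; the Npnt symbols all lie at or below −3.55, and 1 Fbln1 symbol lies at 0.18, apart from the other 2.

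The pRb-deficient cultures differed more among themselves than the pRb-expressing ones. Over the 24 matrix genes that averaged 200 or more, the median coefficient of variation was 12.1% in pRb-deficient and 6.39% in pRb-expressing cultures, and over all probe sets of that brightness it was 11% in pRb-deficient and 7.02% in pRb-expressing cultures. In 17 of the 24 genes pRb-deficient replicate 1 was the highest of its group, and in 17 replicate 3 was the lowest (70.8% each), against 40.9% and 40.8% of all probe sets. The highest over the lowest pRb-deficient signal was 3.28 for Mfap5, 2.19 for Thbs2, 1.99 for Thbs3, 1.97 for Lama4 and 1.91 for Fbln1, where the same ratio among pRb-expressing cultures was 1.1, 1.02, 1.27, 1.13 and 1.28. Genes that were higher without pRb (Fbln1, Tgfbi) and genes that were lower (Mfap5, Fbn2, Nid2, Postn) alike had their highest value in replicate 1 and their lowest in replicate 3, whichever way the groups differed. Tnc had its highest value in replicate 3, and Thbs3 its lowest in replicate 2. Col1a1, the type I collagen gene of osteoblasts, had signals of 13388, 10831 and 8616 in pRb-deficient cultures, against 19145, 20551 and 16759 in pRb-expressing cultures. The part of the lower osteoblast collagen level in these differences was not tested.

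**Figure D4:**
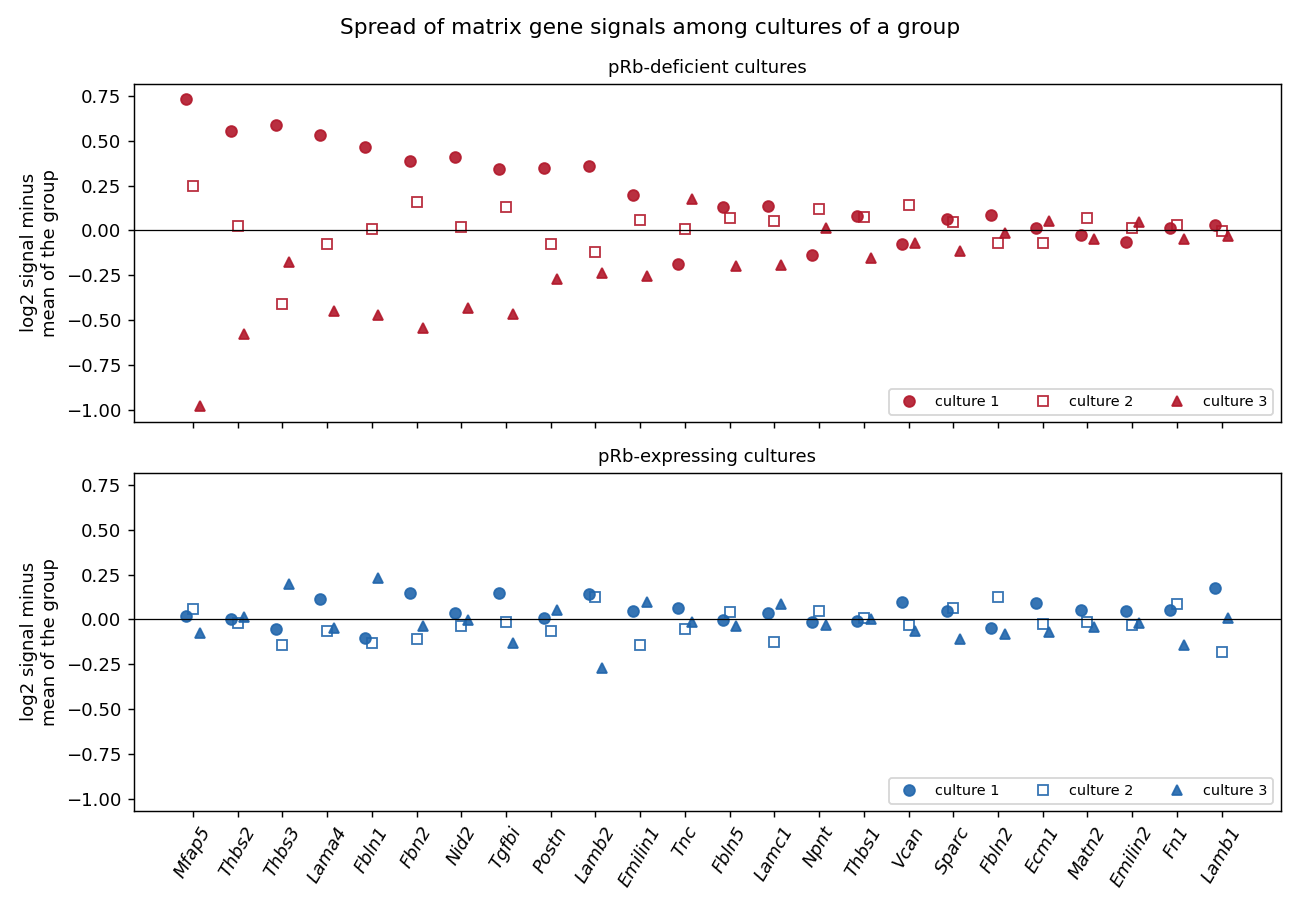
Log2 signal of each culture minus the mean of its group (y axis) for the 24 matrix genes averaging 200 or more, pRb-deficient cultures in the upper panel and pRb-expressing cultures in the lower one, with a symbol for each replicate. Genes are ordered by their spread in pRb-deficient cultures; replicate 1 lies highest in 17 genes and replicate 3 lowest in 17, and the lower panel shows a narrower spread.

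Genes that work with these proteins also changed in both directions. Of 23 tested genes of elastic fiber assembly and of other basement membrane proteins, 9 were higher, 8 lower and 6 did not pass, with a median log2 fold change of −0.04. The share that passed was 73.9%, where 41.9% of all genes did (18.5% higher, 23.4% lower) and 59% of all genes averaging 200 or more. Loxl1 encodes a lysyl oxidase that crosslinks elastin and binds fibulin 5 in mice, with signals of 13727, 14769 and 12208 in pRb-deficient cultures, against 239, 296 and 279.7 in pRb-expressing cultures. The groups were far apart, a log2 fold change of 5.65 (SE 0.11, limma adjusted p = 1.03e-06). Ltbp1, a latent TGF-beta binding protein related to fibrillins, was 2.67-fold higher (adjusted p = 1.46e-05). Col4a6, a chain of type IV collagen, had a log2 fold change of −3.54 and Adamtsl4, a microfibril-binding protein, one of −1.78 (adjusted p = 1.26e-05 and 1.27e-05). The 8 lower genes of this list numbered 5 without pRb-deficient replicate 2 and 4 without pRb-expressing replicate 2.

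Of 23 tested relatives of the matrix families, 5 were higher, 6 lower and 12 did not pass (median log2 fold change −0.05), and the share that passed, 47.8%, was near the 41.9% of all genes. Among these, the fibulin gene Fbln7 did not pass (log2 fold change −0.36, adjusted p = 0.597). Smoc2, a calcium-binding relative of osteonectin, had signals of 1729, 848 and 1452 in pRb-deficient cultures, against 26.2, 61.2 and 48.3 in pRb-expressing cultures, at least 28.2-fold higher (adjusted p = 7.71e-05). Sparcl1, the closest relative of osteonectin, went the other way, with 142, 104 and 104 in pRb-deficient cultures, against 1268, 851 and 1232 in pRb-expressing cultures (log2 fold change −3.25, adjusted p = 5.16e-05). Ntn4, a netrin that disrupts laminin networks, was at least 21.0-fold higher (adjusted p = 2.49e-05), and Frem1, a basement membrane protein of epithelia, at least 3.08-fold lower (adjusted p = 0.000202).

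Of 27 receptor genes, 8 were higher, 8 lower and 11 did not pass (median log2 fold change −0.08). Thus 59.3% passed, where 41.9% of all genes did (18.5% higher, 23.4% lower) and 59% of all genes averaging 200 or more. Itga8 encodes the alpha chain of the nephronectin receptor and was singled out after its values were seen, with signals of 548, 321 and 151 in pRb-deficient cultures, against 2309, 2311 and 2201 in pRb-expressing cultures. Like Npnt it was lower, with no overlap (log2 fold change −2.93, SE 0.42, limma adjusted p = 0.00168). Itgb3, the beta chain of vitronectin receptors, had a log2 fold change of −3.94, a bound since its pRb-deficient values were below the floor, and the syndecan gene Sdc3 one of −1.48 (adjusted p = 2.16e-05 and 2.45e-05). Itga5, the fibronectin receptor chain, was 2.32-fold higher (adjusted p = 0.00013), and Itgb8, whose integrin binds latent TGF-beta, 17.0-fold higher (adjusted p = 5.25e-05). The 8 lower receptor genes numbered 5 when pRb-deficient replicate 2 or 3 or any pRb-expressing replicate was left out.

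Array-wide values that touch these results were as follows. Median signals lay between 108 and 120 on the 6 arrays, and 24.4% to 26.6% of probe sets were at or below the floor. The 3′ to 5′ signal ratio of the Gapdh control was 0.754 to 0.766 in pRb-deficient and 0.736 to 0.752 in pRb-expressing cultures. Of 11 osteoblast markers listed, 8 had a probe set carrying that single gene symbol. Runx2, Bglap and Spp1 had none in the annotation used and were not analysed. Of the 8, 7 were lower and 1 higher in pRb-deficient cultures. Their summed signal was 18030 to 28080 in pRb-deficient and 44560 to 50850 in pRb-expressing cultures. Col1a1 and Col1a2 made up most of these sums, with means of 10940 and 11300 in pRb-deficient and 18820 and 18960 in pRb-expressing cultures. Ibsp and Dmp1 were below the floor in all pRb-deficient cultures. By these 8 markers the labelled cell type was marked less strongly there. The summed signal of 10 mesothelial markers was 3061 to 3726 in pRb-deficient and 736 to 836 in pRb-expressing cultures (3 higher, 2 lower). Msln and Bnc1 carried that difference, and the other 8 markers summed to 431 to 551 in pRb-deficient and 698 to 796 in pRb-expressing cultures. The sum over 12 chondrocyte markers was 2471 to 3252 in pRb-deficient and 5519 to 6104 in pRb-expressing cultures (1 higher, 5 lower). For 12 smooth muscle and pericyte markers it was 32670 to 38550 in pRb-deficient and 29430 to 32730 in pRb-expressing cultures (4 higher, 4 lower). Tagln, Cnn1 and Cspg4 were among the higher ones, while Acta2 did not pass (means of 16560 in pRb-deficient and 19600 in pRb-expressing cultures). For 10 endothelial markers the sum was 748 to 832 in pRb-deficient and 644 to 806 in pRb-expressing cultures (1 higher, 0 lower). Hematopoietic markers summed to 769 to 938 in pRb-deficient and 2241 to 2348 in pRb-expressing cultures. The same sums were 1260 to 1492 and 2498 to 2674 for Schwann and neural markers, and 733 to 1094 and 1223 to 1309 for epithelial markers. The part of other cell types in the results was not tested, and fewer cells of a type and less RNA per cell cannot be told apart in these cultures.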

How the data were processed

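Gene expression was measured in 3 pRb-deficient and 3 pRb-expressing cultures, 1 Affymetrix Mouse Genome array each. The intensities deposited by the authors are MAS5 signals, scaled by them to a trimmed mean of 500. MAS5 and version 1.1 of the Affymetrix Expression Console are the tools that the submitters' processing notes list. The mean of each array trimmed by 2% at each end was 500.0. Of 45101 probe sets, 64 controls and 6610 at or below 32 on all arrays were left out. Values below 32 were set to 32, and log2 values entered a limma model (version 3.58.1 in R 4.3.3) with moderated variances that follow the mean signal, 4 residual degrees of freedom and two-sided p-values. The study's methods name a permutation-based Wilcoxon analysis judged by false discovery rate. It was not run here, and the alternative is a plain exact rank-sum test per gene, which cannot pass with 3 against 3 arrays (smallest p 0.10). Depth is not a property of arrays, and the number of arrays limits the precision.

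The array's annotation gave 1 symbol to 34945 probe sets, several to 932 and none to 9160, and 34741 of the first had a gene ID in RefSeq GRCm38.p6, used for names, chromosomes and promoters, since no build is named in the sources used here. The members and lists were chosen with earlier results of these data known. Signals on all arrays are printed for members past the threshold with no overlap, a log2 fold change of at least 1 in size and a mean of at least 200 in the higher group, and for the 10 brightest members. In the lists of relatives, partners and receptors the 4 genes of lowest adjusted p are named. Fbln7 and Itga8 were named outside this rule. Marker lists also covered hematopoietic cells (1 of 6 tested genes higher, 1 lower), adipocytes (0 of 4), skeletal muscle (0 of 7), Schwann and neural cells (1 of 6 higher, 3 lower) and epithelium (2 of 7 lower). Deviations from group means correlated at 0.02, −0.03 and 0.06 between arrays of the same replicate number, so these were not taken as pairs. The limma fit was tested on simulated data. The 21 alternative settings included other floors, filters, normalizations, tests and probe sets, a replicate block, and leaving out each array.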

Additional observations from a re-analysis of the deposited data

How the results depend on the processing

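Of the 25 matrix genes that passed, 17 kept their direction and passed in each of up to 19 alternative settings in which they had a value, leaving aside the exact rank-sum test and the 2-fold minimum (genes with 1 probe set had no second one, and a stricter filter left some dim genes untested); the exceptions were Tnxb, Sparc, Spock2, Fbln2, Fbln5, Lama4, Lamb2 and Nid1. With the exact Wilcoxon rank-sum test 0 matrix genes, 0 of each other list and 0 of all genes passed in either direction, nor at an unadjusted p under 0.05, since its smallest p is 0.10; limma called 25 of the matrix genes. A minimum change of 2-fold left 4 matrix genes higher and 7 lower, 2 and 3 family relatives, 4 and 3 elastic fiber and basement membrane partners, 1 and 3 receptors, and 539 and 471 of all genes. With a replicate block the matrix counts stayed at 9 and 16, and no call of a matrix gene changed. With chromosome medians removed the signs of Fn1 (0.40) and Sparc (0.16) reversed. So did those of Vtn (0.33), Thbs2 (0.25) and Spock1 (−0.19), which did not pass in either fit. Fn1 also changed sign with quantile normalization (0.10, adjusted p = 0.216). The cause was not tested. Leaving out each array gave 8 to 9 matrix genes higher and 13 to 16 lower. The partners lower numbered 4 to 8 of 8, being 5 without pRb-deficient replicate 2 and 4 without pRb-expressing replicate 2, and 5 with the second brightest probe set. The receptors lower numbered 5 to 8, being 5 without pRb-deficient replicate 2 or 3 or any pRb-expressing replicate. Array quality weights brought Mfap2 (log2 fold change 1.05, adjusted p = 0.0446) and Lama5 (0.66, adjusted p = 0.0498) past the threshold as higher. The mean of all probe sets took Fbln5 out (0.0681), as did the second probe set of Fbln2 (0.992), which was near background.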
